A study of Mus musculus with 32 samples.

Results

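The 10 genes of the bone morphogenetic protein (BMP) pathway described here, out of the 26629 named genes of the expression table, were followed in mouse retina after spaceflight: the ligands Bmp4 and Bmp7, the receptor Bmpr1a, the secreted antagonists Nog and Chrd, the inhibitory Smads Smad6 and Smad7, and the target genes Id1, Id2 and Id3. They were taken by gene symbol, and the set was chosen by earlier RNA results of these data in which Nog was lower after spaceflight. The RNA levels of the 10 genes in the 2 groups are therefore given as a description, with no p-value, and nothing is read from how many of them a fit across all genes called.

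The spaceflight group were female C57 BL/6J mice that went to the International Space Station at 16 weeks of age and lived there for 37 days in NASA's animal enclosure modules, and the ground control group were female C57 BL/6J mice housed in the same type of module on Earth over the same period. The labels give an age of 21 weeks for both groups. No allele, transgene or drug was involved, and both groups were killed and frozen as whole carcasses, in orbit for the spaceflight mice, with the eyes taken from the thawed carcasses later and the whole retina detached by hand from the other eye tissues. Gene expression was measured by RNA-seq in 9 spaceflight and 7 ground control retinas, and CpG methylation by reduced representation bisulfite sequencing (RRBS) in 8 spaceflight and 8 ground control retinas, with 1 retina of 1 mouse per library.

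BMPs are secreted dimers of the TGF-beta superfamily that bind type I and type II receptors, whose kinase activity phosphorylates the receptor Smads. These join Smad4, enter the nucleus and raise transcription of target genes, among them the Id genes, which encode inhibitors of basic helix-loop-helix factors, and Smad6 and Smad7, which feed back on the receptors. Noggin, the product of Nog, and chordin, the product of Chrd, bind BMPs outside the cell and keep them from their receptors, and a loss of either leaves more ligand free to signal. In the eye, BMP signals pattern the retina from dorsal to ventral and are needed for the lens and for retinal cell survival.

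Retinal identity was clear in every RNA library: the summed FPKM (fragments relative to transcript length and sequencing depth) of 8 rod genes lay between 12963 and 28230 in spaceflight and between 17370 and 27370 in ground control libraries, and no gene of the rod, cone, bipolar, amacrine, ganglion cell or Müller glia lists was at 0 in any library. A single ground control library, M31, stood apart. It held the highest level of 9 of the 10 genes among all 16 libraries and also the highest sums for lens, pigment epithelium, Müller glia, melanocyte, fibroblast, pericyte and microglia markers. The Müller glia genes were not all high in it. Rlbp1, Aqp4, Apoe, Clu and Vim were at their ground control maximum. Slc1a3, at 51.8 FPKM, was at the ground control minimum, and Glul, at 505 FPKM, lay under the ground control median of 520 FPKM. The mouse named M21 carries a flight source name and a ground control condition for its RNA library, and it was counted as spaceflight.

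**Figure D1:**
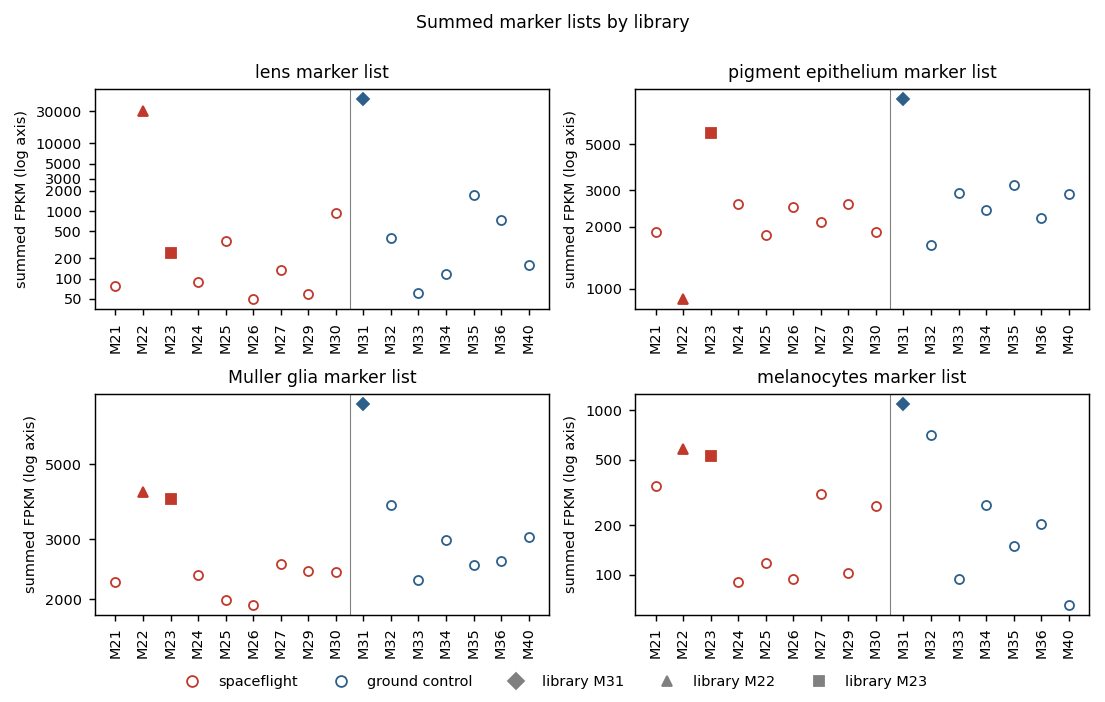
Summed FPKM of 4 marker lists (log axes) in each of the 9 spaceflight libraries, left of the line, and the 7 ground control libraries, right of the line. Library M31 has the highest sum in all 4 panels, and M22 (triangle) has the second highest lens sum.

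Marker sums of the lens, the pigment epithelium and melanocytes spanned a wider range over the libraries than the rod sum did. The lens list (7 crystallin and lens fibre genes) summed to 49.4 to 30525 FPKM in spaceflight and 61.3 to 46038 FPKM in ground control libraries, with M22 at the spaceflight maximum and M31 at the ground control maximum. Up to 3 of the 7 lens genes were at 0 in a library, but none was at 0 in M22 or M31. The pigment epithelium list (7 genes, none at 0) summed to 890.0 to 5653 FPKM in spaceflight and 1630 to 8336 FPKM in ground control libraries, and the melanocyte list (6 genes, none at 0) to 90.9 to 583 FPKM in spaceflight and 65.9 to 1093 FPKM in ground control libraries. The Müller glia list (7 genes of a retinal cell type, none at 0) summed to 1926 to 4139 FPKM in spaceflight and 2283 to 7549 FPKM in ground control libraries. No gene of these 4 lists passed the expression test described below, which 0.147% of all genes tested passed. Median log2 changes, spaceflight minus ground control, were -1.79 for the lens list and -0.42 for the pigment epithelium list. They were -0.15 for melanocytes, -0.21 for Müller glia and -0.0005 for all genes tested. Lens genes had large errors, such as -2.23 ± 2 (SE) for Cryaa. Because whole retinas were sequenced, fewer cells of a type and less RNA per cell cannot be told apart for any gene. The part of lens, pigment epithelium or glial RNA in the levels of the 10 genes was not tested, but each change is also given without M31.

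Among the ligands, Bmp4, the dorsal BMP of the eye, was the most abundant. Its level was 18.1, 18.3, 19.9, 21.5, 22.1, 24.4, 24.9, 26.2 and 50.8 FPKM in the spaceflight libraries. In the ground control libraries it was 18.98, 26.8, 26.8, 27.8, 28.5, 34.1 and 82.0 FPKM. The top values belonged to M23 and M31, the libraries with the highest pigment epithelium sums of their groups, and 8 of 9 spaceflight libraries lay below the ground control median. The log2 change in FPKM + 0.1, spaceflight minus ground control, was -0.39 ± 0.25 (SE), and without M31 it was -0.16 ± 0.19 (SE).

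Bmp7, which is needed for early lens and eye formation, had 6.68, 7.79, 9.03, 10.4, 10.6, 12.2, 13.4, 24.7 and 31.7 FPKM in spaceflight libraries. The ground control libraries had 8.88, 9.84, 12.3, 12.5, 14.5, 18.2 and 60.7 FPKM. Here the spaceflight values of M22 and M23 and the ground control value of M31 stood above the others. The log2 change was -0.33 ± 0.38 (SE), and without M31 it was 0.00 ± 0.30 (SE). Without M22 and M31, a setting chosen after the values had been seen, it was -0.17 ± 0.24 (SE).

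Bmpr1a, the type I receptor ALK3 that phosphorylates Smad1, Smad5 and Smad9, varied least among the abundant genes. It had 30.6, 31.6, 32.5, 32.7, 33.2, 34.5, 36.7, 37.2 and 40.8 FPKM in spaceflight retinas. Ground control retinas had 19.6, 20.3, 28.3, 32.3, 35.3, 36.1 and 36.1 FPKM. The ground control group reached lower, in M40 and M32, while the tops of both groups were close, and no spaceflight library fell below the ground control minimum. The log2 change was 0.25 ± 0.13 (SE), and without M31 it was 0.30 ± 0.13 (SE).

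Nog, the antagonist around which the set was built, showed the widest gap. Spaceflight libraries had 1.31, 1.65, 1.95, 2.61, 2.97, 3.85, 5.84, 6.31 and 6.37 FPKM. Ground control libraries had 3.46, 6.39, 6.52, 7.51, 9.90, 10.6 and 15.6 FPKM. All 9 spaceflight values lay below the ground control median of 7.51 FPKM and 5 of 9 lay below the lowest ground control library, M32, but the groups overlapped. The means were 3.65 ± 2.04 FPKM in spaceflight and 8.57 ± 3.92 FPKM in ground control retinas (SD, n = 9 and 7). The log2 change was -1.28 ± 0.36 (SE). It was -1.12 ± 0.36 (SE) without M31 and -1.19 ± 0.37 (SE) with M21 counted as ground control.

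Nog levels and pigment epithelium sums went together in part of the libraries. In the ground control group M31, M35 and M33 had the 3 highest pigment epithelium sums (8336, 3191 and 2909 FPKM) and the 3 highest Nog levels (15.6, 10.6 and 9.90 FPKM), and M32 had the lowest of both (1630 FPKM and 3.46 FPKM). In the spaceflight group M23 had the highest pigment epithelium sum, 5653 FPKM, and 6.31 FPKM of Nog, and M22, with the highest lens sum, had the lowest pigment epithelium sum, 890.0 FPKM, and 1.95 FPKM of Nog. Also in the spaceflight group, M29 had the third highest sum, 2575 FPKM, and the third highest Nog level, 5.84 FPKM. M25 had the second lowest sum there, 1818 FPKM, and the lowest Nog level, 1.31 FPKM. Some other libraries did not follow this order. M24 had the second highest spaceflight sum, 2588 FPKM, and 2.61 FPKM of Nog. The highest spaceflight Nog, 6.37 FPKM, was in M26, with a sum of 2485 FPKM. In the ground control group M40, with a sum of 2885 FPKM, had 6.52 FPKM of Nog, below M36 with 2198 FPKM and 7.51 FPKM of Nog. The part of pigment epithelium RNA in the Nog difference was not tested.

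Chrd, which encodes the second antagonist, was the least abundant of the 10 genes, with 0.48 to 0.82 FPKM (median 0.57) in spaceflight and 0.39 to 1.07 FPKM (median 0.65) in ground control retinas. In full, the spaceflight values were 0.483, 0.489, 0.525, 0.569, 0.572, 0.603, 0.628, 0.689 and 0.817 FPKM and the ground control values 0.392, 0.488, 0.567, 0.655, 0.669, 1.02 and 1.07 FPKM. Its mean over all libraries of 0.64 FPKM was under the minimum of 1 FPKM set for the fit, so that 9 of the 10 genes entered it. The log2 change from a fit with no minimum was -0.14 ± 0.19 (SE).

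**Figure D2:**
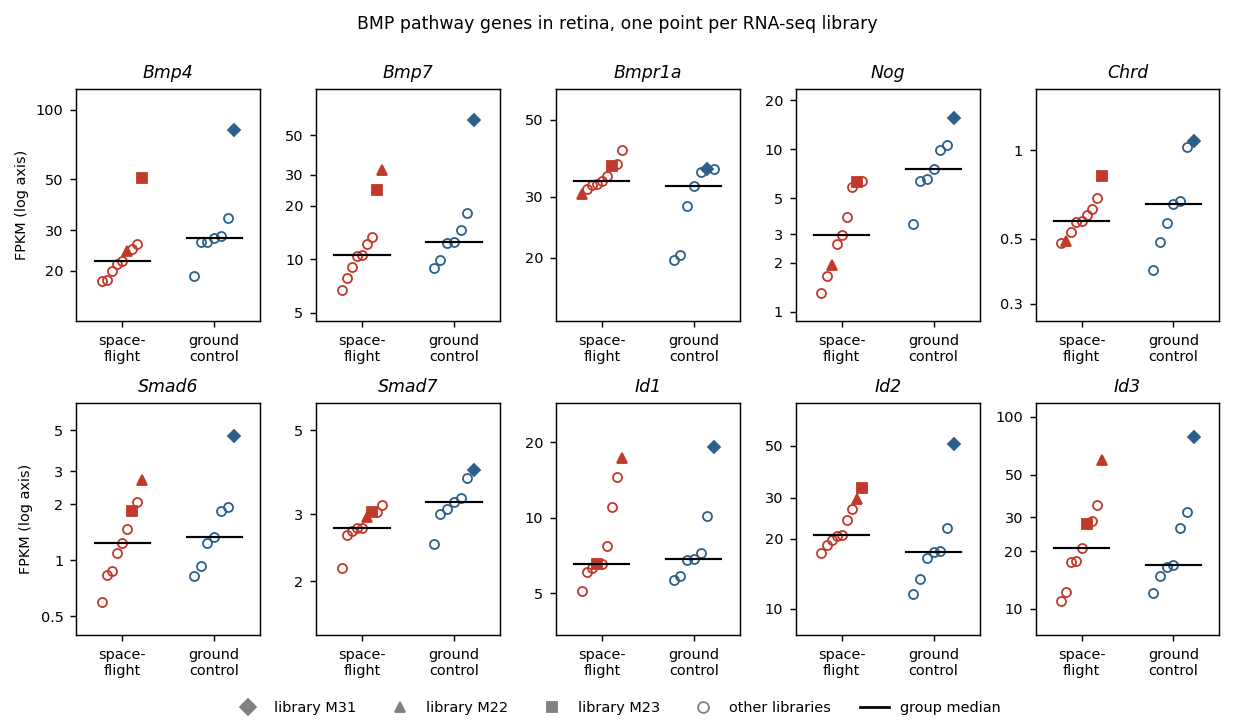
FPKM (log axes) of the 10 BMP pathway genes, with 1 point per RNA-seq library, spaceflight (n = 9) left and ground control (n = 7) right, and a bar at each group median. For Nog all 9 spaceflight points lie below the ground control median, and library M31 (diamond) is the highest point in 9 of the 10 panels.

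The inhibitory Smads are direct BMP targets as well as brakes on the pathway. Smad6, which preferentially blocks BMP receptors, had 0.593, 0.828, 0.878, 1.09, 1.24, 1.48, 1.83, 2.05 and 2.71 FPKM in spaceflight libraries. The ground control libraries had 0.826, 0.927, 1.24, 1.33, 1.84, 1.93 and 4.67 FPKM. The medians were 1.24 FPKM in spaceflight and 1.33 FPKM in ground control libraries, and M31 was far above the rest. On the log2 scale the change was -0.26 ± 0.34 (SE), against -0.01 ± 0.30 (SE) without M31 and -0.14 ± 0.27 (SE) without M22 and M31.

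Smad7, which blocks TGF-beta and activin as well as BMP receptors, varied little. It had 2.16, 2.65, 2.70, 2.75, 2.76, 2.95, 3.04, 3.04 and 3.17 FPKM after spaceflight. Ground control retinas had 2.50, 3.01, 3.10, 3.22, 3.31, 3.75 and 3.93 FPKM. As for Nog, all 9 spaceflight libraries lay below the ground control median, here 3.22 FPKM, although the ranges overlapped. Its log2 change was -0.20 ± 0.10 (SE), and -0.16 ± 0.10 (SE) without M31.

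The 3 Id genes, the best known transcriptional readout of BMP signalling, had log2 changes on either side of 0 with all libraries, and above 0 in all 3 without M31. With M22 also left out, they were 0.11 ± 0.21 (SE) for Id1, 0.45 ± 0.16 (SE) for Id2 and 0.09 ± 0.27 (SE) for Id3. M22 had the highest lens sum of the spaceflight group, and this setting was chosen after the values had been seen. Id1 had 5.11, 6.08, 6.31, 6.56, 6.57, 7.70, 11.01, 14.5 and 17.3 FPKM in spaceflight retinas. Ground control retinas had 5.68, 5.86, 6.81, 6.87, 7.24, 10.2 and 19.1 FPKM. The medians of 6.57 FPKM in spaceflight and 6.87 FPKM in ground control libraries were near each other, and M21, M22 and M31 were the highest libraries. The same libraries had the highest sums of 6 corneal and basal epithelium genes, at 907, 269 and 81.6 FPKM. The part of such RNA in the Id1 levels was not tested. The log2 change of 0.04 ± 0.28 (SE) was 0.24 ± 0.25 (SE) without M31 and -0.17 ± 0.28 (SE) with M21 counted as ground control.

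Id2 had 17.3, 18.9, 19.7, 20.5, 20.8, 23.96, 26.8, 29.6 and 32.9 FPKM in spaceflight libraries. The ground control libraries had 11.6, 13.4, 16.6, 17.6, 17.8, 22.2 and 51.0 FPKM. With the exception of M31, the ground control libraries lay in the lower part of the spaceflight range or under it, and 1 of 9 spaceflight libraries was below the ground control median of 17.6 FPKM. The change in log2 was 0.26 ± 0.24 (SE), and without M31 it was 0.50 ± 0.16 (SE).

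Id3 spread the most, with 10.9, 12.2, 17.6, 17.8, 20.8, 27.7, 28.8, 34.6 and 59.7 FPKM in spaceflight libraries. The ground control libraries had 12.1, 14.8, 16.6, 17.02, 26.3, 32.1 and 78.8 FPKM. The highest libraries of the groups, M22 and M31, were those with the highest lens sums. On the log2 scale the change was -0.03 ± 0.38 (SE), and 0.26 ± 0.32 (SE) without M31.

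**Figure D3:**
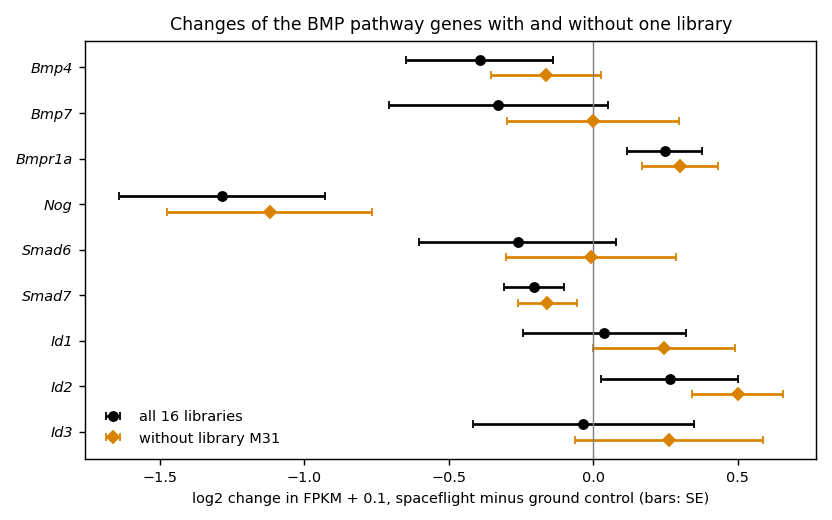
Log2 change in FPKM + 0.1, spaceflight minus ground control, of the 9 genes above the minimum level, with SE bars, from all 16 libraries (circles) and without library M31 (diamonds). Nog lies at -1.28 with all libraries and at -1.12 without M31, while Id1, Id2 and Id3 lie between -0.03 and 0.26 with all libraries and between 0.24 and 0.50 without M31.

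Beside the lower Nog, the 5 targets thus had log2 changes between -0.26 (Smad6) and 0.26 (Id2) with all libraries. Their SE was largest for Id3 (0.38) and Smad6 (0.34) and smallest for Smad7 (0.10). Without M31 the range was -0.16 (Smad7) to 0.50 (Id2), and without M22 and M31 it was -0.17 (Smad7) to 0.45 (Id2).

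The genes were also set in order of their levels. FPKM is scaled to transcript length and allows levels of different genes to be set side by side. In spaceflight libraries the mean levels ran from Bmpr1a (34.4 FPKM) through Id3, Bmp4, Id2, Bmp7, Id1, Nog, Smad7 and Smad6 to Chrd (0.60 FPKM), and in ground control libraries from Bmp4 (35.003 FPKM) through Bmpr1a, Id3, Id2, Bmp7, Id1, Nog, Smad7 and Smad6 to Chrd (0.70 FPKM). Neighbours in this order overlapped within 1 SD of their means, with few exceptions. In spaceflight libraries Smad7 stood apart from Smad6 and Smad6 from Chrd, whereas in ground control libraries only Nog, at 8.57 FPKM, stood apart from Smad7, at 3.26 FPKM.

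In limma a gene was called where it changed 1.2-fold or more, its unadjusted p did not exceed 0.05 and its adjusted p (Benjamini-Hochberg) did not exceed 0.3. By this rule 0 of the 9 genes were called, beside 21 of 14322 genes tested in all (0.147%, of which 7 were higher and 14 lower). Without the adjusted p, 1 of the 9 genes (Nog) passed among the lower genes and 0 among the higher genes, beside 2.92% of all genes for lower and 4.36% for higher. Without M31, 3 of the 9 genes (Nog, Bmpr1a and Id2) were called, with 1367 of 14284 genes in all (9.57%), and without M33 or without M35 Nog alone was. Since the set was chosen with this contrast known, nothing is read from these counts. The median log2 change was -0.20 for the 9 genes and 0.00 for all 14322 genes. Without M31 the middle change of the 9 genes was that of Bmp7, at -0.001.

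The wider pathway was covered by 55 further genes in 5 lists, of which 39 passed the minimum level. In limma 0 of the 39 were called in either direction (0.147% of all genes), and 0 passed without the adjusted p. At an unadjusted p alone 1 passed, Tob1, at less than 1.2-fold, beside 10.8% of all genes. The median log2 change was -0.09, with 26 genes lower and 13 higher, from -0.32 for Rgma, a co-receptor, to 0.30 for Acvr2a, a type II receptor, and all 39 had overlapping groups, as had all but 0.0838% of the genes tested.

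By role, 0 of 4 further ligands, 0 of 10 receptors and co-receptors, 0 of 11 antagonists and modulators, 0 of 9 Smads and Smad regulators and 0 of 5 target genes were called in either direction. The 2 most abundant genes of each list were as follows. Bmp2 had 6.80 ± 4.31 FPKM in spaceflight and 8.003 ± 10.2 FPKM in ground control retinas (log2 change 0.15 ± 0.46, SE), and Bmp3, a ligand that opposes other BMPs in bone, 4.37 ± 0.92 FPKM after spaceflight and 5.05 ± 1.28 FPKM in controls (-0.19 ± 0.17). The type II receptor Bmpr2 had 58.7 ± 7.25 FPKM in spaceflight and 57.4 ± 9.38 FPKM in ground control retinas (0.04 ± 0.11), and neogenin, Neo1, the receptor of the repulsive guidance molecules, 25.8 ± 2.72 FPKM after spaceflight and 24.7 ± 3.09 FPKM in controls (0.07 ± 0.09). These receptors differed by less than the spread between libraries.

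Among the antagonists, Crim1, a membrane protein that binds BMPs, had 41.7 ± 14.2 FPKM in spaceflight and 51.1 ± 42.1 FPKM in ground control retinas (-0.10 ± 0.29, SE), and Nbl1, a secreted protein of the DAN family, 17.5 ± 9.57 FPKM after spaceflight and 21.7 ± 14.7 FPKM in controls (-0.24 ± 0.32). Smad4, the common partner Smad, had 37.8 ± 2.35 FPKM after spaceflight and 36.1 ± 2.77 FPKM in controls (0.07 ± 0.06), and Tob1, an antiproliferative protein that binds Smads, 45.5 ± 4.74 FPKM after spaceflight and 53.0 ± 6.37 FPKM in controls (-0.22 ± 0.09, limma adjusted p = 0.408). Of the other targets, Tbx2, a T-box factor of the dorsal retina, had 19.3 ± 1.96 FPKM in spaceflight and 22.6 ± 5.14 FPKM in ground control retinas (-0.20 ± 0.12), and Id4, the fourth Id gene, 7.63 ± 1.14 FPKM after spaceflight and 7.80 ± 1.46 FPKM in controls (-0.02 ± 0.12). In these sentences values are mean ± SD for 9 spaceflight and 7 ground control libraries and changes are ± SE. Without M31, 3 genes of the wider lists were called, all lower, beside 9.57% of all genes: Bmp3 (-0.33 ± 0.14, SE), Tbx2 (-0.27 ± 0.11) and Acvr2b, a type II receptor (-0.27 ± 0.12).

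Whether Nog and the BMP targets varied together was examined within each group, which leaves the difference between groups out. Correlations of log2(FPKM + 0.1) were computed for 5 targets in 2 groups, 10 relations in all, with two-sided exact permutation p-values. In the 9 spaceflight libraries Pearson's r of Nog was -0.40 with Id1 (Spearman's rho -0.50; exact permutation p = 0.291 and 0.178), -0.12 with Id2 (rho -0.22; p = 0.749 and 0.581) and -0.08 with Id3 (rho -0.07; p = 0.841 and 0.880). With Smad6 it was -0.13 (rho -0.13; exact permutation p = 0.728 and 0.744) and with Smad7 -0.21 (rho -0.08; p = 0.637 and 0.843). Every r was below 0 in this group, and none was past the threshold.

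In the 7 ground control libraries r was 0.37 with Id1 (rho 0.29; exact permutation p = 0.396 and 0.556), 0.46 with Id2 (rho 0.25; p = 0.297 and 0.595), 0.27 with Id3 (rho 0.00; p = 0.544 and 1), 0.18 with Smad6 (rho -0.21; p = 0.677 and 0.662) and 0.18 with Smad7 (rho 0.14; p = 0.724 and 0.783). After Benjamini-Hochberg adjustment over the 10 relations the lowest exact permutation p was 0.833 for r and 0.978 for rho. Without M31 every r in this group was below 0: over the other 6 libraries r was -0.61 with Id1, -0.37 with Id2, -0.70 with Id3, -0.89 with Smad6 and -0.32 with Smad7. Of these the lowest p was that of Smad6 (exact permutation p = 0.0139, adjusted 0.139), and library M31 was left out here after its values had been seen.

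Without the 2 libraries farthest from the median of Nog (M25 and M26), r over 7 spaceflight libraries was -0.45 with Id1, -0.10 with Id2, -0.35 with Id3, 0.12 with Smad6 and 0.18 with Smad7. Without M31 and M32, r over the remaining 5 ground control libraries was 0.61 with Id1, 0.53 with Id2, -0.24 with Id3, -0.92 with Smad6 and -0.84 with Smad7. The signs therefore changed with 1 or 2 libraries for most pairs, and the lowest adjusted exact permutation p of this setting was 0.167.

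**Figure D4:**
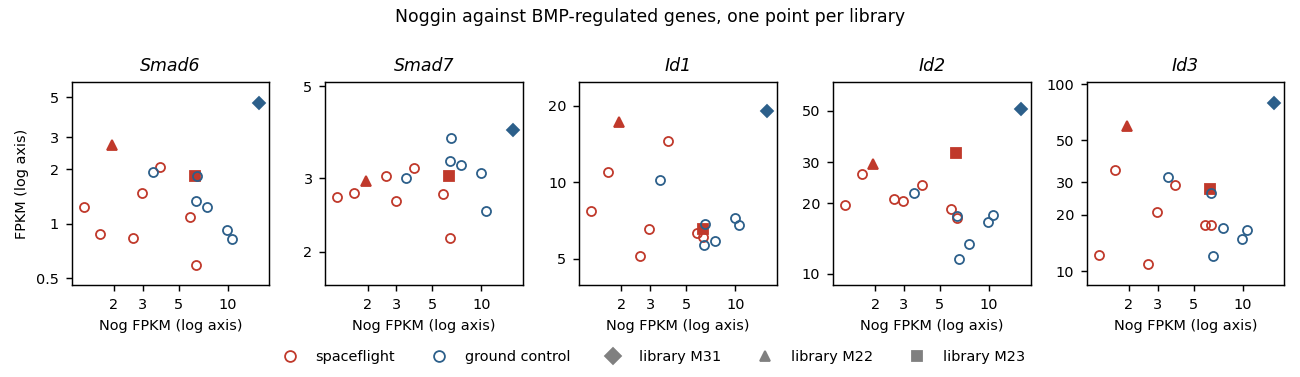
FPKM of Smad6, Smad7, Id1, Id2 and Id3 against FPKM of Nog (all axes logarithmic), with 1 point per library, spaceflight red (n = 9) and ground control blue (n = 7). Library M31 (diamond) has the highest Nog level and the highest level of each of the 5 targets, while M22 (triangle) combines a Nog level of 1.95 FPKM with high Id1 and Id3.

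The genes whose levels went most closely with Nog over the 16 libraries, after subtraction of the group means, were Stra13 (Pearson's r = 0.82), Lypla1 (0.80), Serpine3 (0.79), Rdh10 (0.79) and Acadm (0.77). These values describe the best of 14322 genes and share the libraries and their tissue composition with Nog.

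The eye from which a retina came was compared within the spaceflight group, 4 left against 5 right retinas. In limma 0 of 14378 genes were called (0%), and none of the 9 genes passed an unadjusted p of 0.05. Nog had 3.65 ± 1.65 FPKM in left and 3.65 ± 2.50 FPKM in right retinas (SD), with a log2 difference, left minus right, of 0.18 ± 0.51 (SE; adjusted p = 0.957). The widest difference was that of Smad6, with 1.83 ± 0.71 FPKM in left and 1.07 ± 0.48 FPKM in right retinas (0.74 ± 0.36; adjusted p = 0.826).

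DNA methylation of the same genes was a readout that the choice of the set had not used. RRBS reads CpGs in GC-rich fragments, and the 16 libraries held 59572205 to 105298542 reads on CpG cytosines. At the 10 loci, with 1000 bp to either side, 1069 CpGs had at least 10 reads in every library.

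Upstream sequence of 6 of the 10 genes was found in a RefSeq table of GRCm38.p6 promoters. The 250 bases before the start site are shown for an antagonist, a ligand and both Id genes found there, in lower case, with capitals for each CpG that was read at least 10 times in all 16 libraries, since these are the CpGs on which the methylation values rest.
Chrd, chr16:20732877-20733126, plus strand: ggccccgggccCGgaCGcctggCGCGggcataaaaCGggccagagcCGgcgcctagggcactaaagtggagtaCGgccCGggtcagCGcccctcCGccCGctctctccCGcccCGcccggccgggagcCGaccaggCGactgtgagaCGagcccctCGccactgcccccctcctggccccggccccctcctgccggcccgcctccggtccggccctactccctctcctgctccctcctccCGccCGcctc
Bmp4, chr14:46390670-46390919, minus strand: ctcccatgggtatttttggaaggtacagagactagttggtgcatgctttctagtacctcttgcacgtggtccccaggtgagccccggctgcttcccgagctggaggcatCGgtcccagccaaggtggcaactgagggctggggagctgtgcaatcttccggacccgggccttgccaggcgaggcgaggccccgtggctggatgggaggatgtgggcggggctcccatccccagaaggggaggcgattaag
Id2, chr12:25096093-25096342, minus strand: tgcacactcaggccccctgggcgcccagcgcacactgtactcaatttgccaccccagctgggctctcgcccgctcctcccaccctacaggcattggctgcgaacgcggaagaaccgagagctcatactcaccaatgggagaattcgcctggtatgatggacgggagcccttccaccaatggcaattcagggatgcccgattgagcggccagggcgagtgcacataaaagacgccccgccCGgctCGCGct
Id3, chr4:136143572-136143821, plus strand: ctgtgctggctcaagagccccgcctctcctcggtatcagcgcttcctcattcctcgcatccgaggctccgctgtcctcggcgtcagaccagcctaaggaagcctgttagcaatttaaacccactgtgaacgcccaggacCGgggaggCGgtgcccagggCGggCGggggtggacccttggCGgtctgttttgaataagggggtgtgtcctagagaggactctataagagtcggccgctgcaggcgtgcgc

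Coverage of these stretches was partial. In the Chrd stretch 19 of 28 CpGs were read, with mean methylation of 0.55% ± 0.28 in spaceflight and 0.68% ± 0.71 in ground control libraries (SD, n = 8 each). In the Id2 stretch 3 of 18 were read (0.35% ± 0.42 in spaceflight and 0.46% ± 0.62 in ground control), in the Id3 stretch 5 of 18 (0.08% ± 0.24 in spaceflight and 0.67% ± 1.09 in ground control), and in the Bmp4 stretch 1 of 11 (17.3% ± 5.26 in spaceflight and 13.8% ± 7.45 in ground control). The single Bmp4 CpG was the only one of these with methylation well above 1%.

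The letters GGCGCC, a palindrome to which BMP-activated Smads can bind, were searched in the same 250 bases, in which both strands read alike. They occurred once each in the stretches of Chrd (203 to 198 bases before the start), Id2 (231 to 226 bases before it) and Bmpr1a (198 to 193 bases before it), and not in those of Bmp4, Smad6 and Id3. Of 32851 RefSeq promoter stretches of that length, 9.59% held them. Those stretches were not matched in GC content to the stretches of these genes, so nothing is read from the comparison. Nog, Bmp7, Id1 and Smad7 were not searched.

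Promoter methylation, the mean over CpGs within 1000 bp of a start site, was low in both groups. It could be tested for 8 of the 10 genes, as Bmp4 and Id1 had only 1 such CpG each. At Nog, 119 CpGs gave 0.25 to 0.54% (mean 0.35% ± 0.09) in spaceflight and 0.24 to 0.59% (mean 0.39% ± 0.11) in ground control libraries (SD, n = 8 each), a difference of -0.03 points (95% interval -0.14 to 0.08; two-sided exact permutation p = 0.536). Nearly no read over the Nog promoter was methylated in either group.

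In spaceflight and in ground control libraries the means were 0.46% ± 0.16 and 0.48% ± 0.14 at Bmp7 (75 CpGs), 0.37% ± 0.12 and 0.37% ± 0.10 at Bmpr1a (130 CpGs), 0.55% ± 0.09 and 0.51% ± 0.29 at Chrd (66 CpGs) and 0.97% ± 0.14 and 0.87% ± 0.13 at Smad6 (61 CpGs). In spaceflight and ground control libraries they were also low, at 0.38% ± 0.10 and 0.37% ± 0.07 at Smad7 (124 CpGs), 0.29% ± 0.18 and 0.44% ± 0.14 at Id2 (13 CpGs) and 0.48% ± 0.18 and 0.63% ± 0.29 at Id3 (43 CpGs). The widest difference, at Id2, was -0.15 points (95% interval -0.32 to 0.02; exact permutation p = 0.087, adjusted p = 0.986).

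Of the 8 promoters 0 were called at an adjusted p of 0.05 or under, beside 0 of 16712 promoters in all (0%), and 0 passed the unadjusted p of 0.05 by the exact permutation test, beside 4.96% of all promoters. With 8 against 8 libraries the smallest exact permutation p is 0.000155, and 52 promoters would have to reach it for a call. The median promoter of all genes had 0.66% in spaceflight and 0.65% in ground control libraries, and 56.6% of promoters were under 1% in both groups, as 8 of the 8 were.

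**Figure D5:**
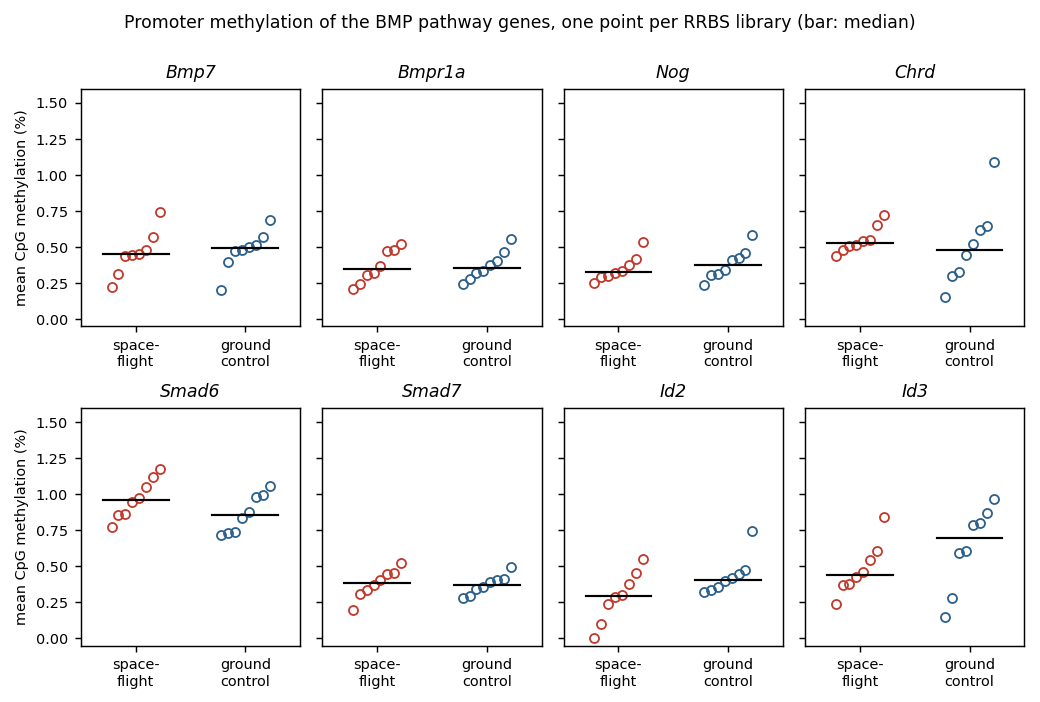
Mean CpG methylation (%) within 1000 bp of the start of 8 BMP pathway genes, with 1 point per RRBS library, 8 spaceflight libraries left and 8 ground control libraries right, and a bar at each median. The group means lie between 0.29 and 0.97%, and the groups overlap in every panel.

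The loci lie, in GRCm38, at chr14:46383525-46390669 (Bmp4), chr2:172868012-172940321 (Bmp7), chr14:34411061-34503336 (Bmpr1a), chr11:89300638-89302559 (Nog), chr16:20731425-20742384 (Chrd), chr9:63953076-64022085 (Smad6), chr18:75367365-75395935 (Smad7), chr2:152736251-152737410 (Id1), chr12:25093799-25096092 (Id2) and chr4:136143822-136145392 (Id3).

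Outside the promoters methylation was higher at most genes, and differed more between genes than between groups. Introns averaged 72.4% in spaceflight and 72.6% in ground control libraries at Bmp7 (59 CpGs), 55.0% and 54.3% at Smad6 (86 CpGs) and 47.0% and 45.4% at Smad7 (30 CpGs). Exons averaged 94.3% and 94.2% at Bmp7 (13 CpGs), 38.1% and 37.7% at Bmp4 (33 CpGs) and 1.80% and 1.67% at Smad7 (100 CpGs). At Nog, 7 CpGs of the flanks averaged 0.94% in spaceflight and 0.96% in ground control libraries.

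Of the 1069 single CpGs 0 reached both 10 points of difference and an adjusted p within 0.05, beside 0 of 1071573 in all (0%). Without adjustment 1 passed, beside 2016 in all (0.188%): a CpG in the flank past the 3' end of Bmp7 (chr2, position 172867589) at 56.0% ± 5.28 in spaceflight and 67.6% ± 14.1 in ground control libraries (SD, n = 8 each; logistic model adjusted p = 0.865). With no minimum difference, 53 of the 1069 had an unadjusted p of 0.05 or under, 28 of them lower after spaceflight, beside 4.09% of all CpGs.

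The CpG with the smallest p of each gene lay in the promoter for 8 of the 10 genes and differed by less than 2 points there. At Nog it was position 89302362 of chr11, 197 bp into the gene, with 0% in all 8 spaceflight and 0 to 3.77% in ground control libraries (mean 1.32% ± 1.52, SD; logistic model adjusted p = 0.865). At Id3 it was position 136143895 of chr4, 73 bp past the start, with 0% in all spaceflight and 0 to 3.12% in ground control libraries. At Bmpr1a, position 34502747 of chr14, 201 bp before the start, had 0 to 3.12% in spaceflight libraries and 0% in all ground control libraries. At Bmp4 it was in an intron (position 46385605 of chr14), with 0 to 8.33% in spaceflight and 0 to 29.4% in ground control libraries, and at Smad6 in an exon (position 64020794 of chr9), with 0% in all spaceflight and 0 to 5.19% in ground control libraries. At depths of this kind (36 reads or more at the Nog CpG) 0% means that no methylated read was counted in a library, and values this low are a few reads.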

How the data were processed

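The genes and lists were chosen with earlier results of these data known. RNA levels were the FPKM deposited by the authors, made with Trimmomatic, TopHat2 (GRCm38) and Cufflinks. Of its sample columns, 16 were used and 2 were not. Ground control columns were assigned to their group only, because the mouse numbers of labels and table differ. An entry without a gene name (up to 0.388% of a library) was left out. Groups were compared with limma 3.58.1 (R 4.3.3, mean-variance trend) on log2(FPKM + 0.1) for genes with a mean of at least 1 FPKM. This scale understates changes of low genes, and the table holds no read counts, so that no counting error is given.

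For RRBS, the authors trimmed with Trim Galore 0.4.5, removed duplicates by random tags and aligned with Bismark, and the deposited tables give a read count per CpG cytosine and the percent methylated. Strands were added, and a CpG was kept where each of the 16 libraries had 10 reads or more. All 40848 CpGs checked on chromosome 19 are CG in the GRCm38 reference. Promoters (1000 bp to either side of a start, at least 5 CpGs) were compared by exact permutation over 12870 splits, and CpGs by logistic regression with an overdispersion factor, both adjusted by Benjamini-Hochberg. Start sites and loci came from RefSeq models. Nothing states litters or cages, so neither could be allowed for. The p-values between groups set a group difference against the variation between libraries, whatever its source. The fits were tested on simulated data. All 10 genes are named, with the called and the 2 most abundant genes of each wider list, the 5 genes most correlated with Nog and the CpG of smallest p per gene. Other pseudocounts, filters, scalings and read minimums, a narrower window, right eyes only and left-out libraries were tried. The authors' own test columns were not used.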

Additional observations from a re-analysis of the deposited data

Results flagged for a closer look

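Of 36 groups of library values checked for these genes, 9 held a library far from the others of its group. The rule is set for about 1 in 20 independent groups of normally distributed values. FPKM need not be so distributed, and these groups share libraries, so the count is not set against chance. In 6 of the 9 it was the ground control library M31, with 82.0 FPKM of Bmp4, 60.7 FPKM of Bmp7, 4.67 FPKM of Smad6, 19.1 FPKM of Id1, 51.0 FPKM of Id2 and 78.8 FPKM of Id3, each the highest of its group. In the spaceflight group M23 stood apart with 50.8 FPKM of Bmp4 and M22 with 59.7 FPKM of Id3. In the methylation data the ground control library M34 stood apart with 0.749% at the Id2 promoter, over 13 CpGs. The summed lens markers were 30525 FPKM in M22 and 46038 FPKM in M31, and their part in these values was not tested.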

How the results depend on the processing

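No paired analysis was possible because spaceflight and ground control mice are different animals and their replicate numbers were given in accession order. The number of genes called among all tested, 21 with all libraries, was 0 with M21 counted as ground control and ranged over 0 to 1367 when 1 library was left out, with 1367 without M31, 523 without M35 and 480 without M33. Among the 10 BMP genes the count was 0 to 3 (Nog, Bmpr1a and Id2 without M31, and Nog without M33 or without M35), and among the wider lists 0 to 3. Alternatives chosen after seeing the data gave 1462 genes called without M31 under median-of-ratios scaling (3 of the 10 genes, 1 of the wider lists) and 1214 without M22 and M31 (3 of the 10 genes, 2 of the wider lists). The cause was not tested. The log2 change of Nog lay between -1.48 and -1.04 over 24 alternatives. Some of these, the other filters and the fit without a trend, leave the change of a gene as it is by design. The set was chosen by this contrast, so nothing is read from that range. The uncalled changes of Id1 and Id3 had the other sign in 7 and 8 of the alternatives, and those of Bmp7 and Smad6 in 1 each. Promoters, CpGs and relations called at these genes stayed at 0 under the alternatives run. With fewer libraries the permutation tests have fewer arrangements and a larger smallest p. For promoters in right eyes only (5 against 5) and for relations over 5 ground control libraries a call was hardly possible, so nothing is read from those counts. Chrd was left out of the fit by the minimum of 1 FPKM.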
